A study of Mus musculus with 4 samples.

Results

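Proteasome genes, including those of the immunoproteasome, were compared between activated RbLoTem and RbHiTn CD4+ T cells. The proteasome is the barrel-shaped protease that degrades ubiquitin-tagged proteins. Its 20S core is built from rings of alpha and beta subunits, and the beta rings hold the catalytic sites. The 19S cap, with a base that includes ATPases and a lid, recognises, deubiquitinates and unfolds substrates. In lymphocytes, and in other cells under interferon gamma, the catalytic subunits PSMB8, PSMB9 and PSMB10 replace PSMB5, PSMB6 and PSMB7 in newly built cores, which gives the immunoproteasome. The PA28 activator, made of PSME1 and PSME2, binds the ends of the core in place of a cap. Immunoproteasomes and PA28 are best known for shaping the peptides that MHC class I presents, and they are abundant in T cells at rest as well.

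The members were the gene models whose symbol begins with PSMA to PSMG followed by a digit. Of 38588 models listed, 57 carried such a name. Of these, 41 models belonged to 39 proteasome subunit or assembly genes. The other 16 were 14 pseudogenes, PSMC3IP, which encodes a meiotic recombination factor, and the antisense gene PSMG3-AS1, and they were kept out of the counts. PSMC3IP did not pass the test (log2 fold change -0.19, SE 0.22, adjusted p = 0.519), and PSMG3-AS1 had 0 reads. Of 48 proteasome genes looked for, PSMA7, PSMA8, PSMB7, PSMD3, PSMD5, PSMD10, PSMF1, PSMG1 and PSMG2 had no model under those names and were not analysed here. PSMA1 and PSMA2 were each listed as 2 overlapping models. Of the 41 models, 40 had exon reads, and all 40 passed the filter on low counts. The exception was PSMB11, the catalytic subunit of the thymus epithelium, with 0 exon reads in all 4 libraries.

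Both subsets were sorted from the spleens of resting mice of the strain C57BL/6-Foxp3tm1Flv/J and lacked FoxP3. RbHiTn cells were CD45RbHi, CD44Lo and CD62LHi, the naive phenotype, and RbLoTem cells were CD45RbLo, CD44Hi and CD62LLo, the effector/memory phenotype. All libraries came from cells activated for 72 h on plates coated with antibody to CD3, given as 2 ug in the labels, so no library shows either subset at rest. Each subset had 2 libraries, and in each subset the label of 1 library ends in the suffix o, which no source used here explains. No source says whether the libraries of a subset were from separate cultures or animals. The spread between them may therefore be technical, and it is the only spread that the p-values take into account.

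Values below are in the order library without o, library with o. A read count is the number of reads in the exons of a model. RPKM divides that count by the exon length in kb and by the reads in genes of the library, in units of 1000000, and CPM is the count per 1000000 exon reads. Although mouse cells were sequenced, the models have human names and positions, of a build that the files do not name. A model with few reads therefore need not mark a quiet gene, and levels of different genes are less certain than the difference of a gene between libraries. Fold changes are log2 of RbLoTem over RbHiTn from edgeR's quasi-likelihood test, with the standard error (SE) and a p-value adjusted by the Benjamini-Hochberg method over all 6539 models tested. A gene was called higher or lower at an adjusted p under 0.05. Where a value in parentheses after the RPKM is followed by its SE, it is this log2 fold change.

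Reads in genes numbered 4192083 to 6514106 per library. The spread between libraries of a subset was small, with a biological coefficient of variation of 0.0432. Of the T cell markers, the CD3D, CD2 and CD28 models had 0 reads and the CD4 model 1 to 4 reads per library, while LCK and ZAP70 had between 723 and 3912. Of 12 T cell markers listed, 8 were tested and 3 were called lower, beside 23.6% of all tested models. The 3 were CD3G (log2 fold change -1.10), CD3E (-0.93) and LCK (-0.26). All 6 tested of 12 B cell markers were called lower in RbLoTem cells, and their summed level lay at 37.7 to 37.9 CPM in RbHiTn and at 1.88 to 2.21 in RbLoTem libraries, with CD79B, CD22 and FCRLA at 0 throughout. All 6 tested of 14 markers of dendritic cells, monocytes and macrophages were called lower too, namely SPI1, CTSS, IRF8, HLA-DQA1, HLA-DRB1 and CD74. Summed levels of this list were 86.9 to 104.5 CPM in RbHiTn and 13.6 to 14.1 CPM in RbLoTem libraries. ITGAX, CSF1R, LYZ, CD68, FCGR1A and HLA-DRA had 0 reads. Whether the reads of the 6 called markers came from such cells or from B cells was not tested. The models of CD8 T and NK cell markers had 0 reads. B cells and dendritic cells also transcribe immunoproteasome genes, and the part of such cells in the results below was not tested. In bulk RNA, fewer cells of a type and less RNA per cell cannot be told apart.

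Proteasome genes were mostly slightly higher in RbLoTem cells. Of the 40 models tested, 26 were called higher and 0 lower, against 24.3% called higher and 23.6% called lower among all models tested. At an unadjusted p under 0.05, 29 were higher and 0 lower. DESeq2 called 23 higher and 0 lower, and limma 24 and 0. The median log2 fold change was 0.22 (range -0.34 to 0.45), against -0.01 over all models tested, and 32 of 40 values (80%) lay above 0, against 48.9% of all models. In 30 of 40 models both RbLoTem libraries lay above both RbHiTn libraries, against 35.3% of all tested models. Proteasome transcripts are abundant, and abundance raises the power of the test. Among the 1746 models with at least 100 CPM, 35.3% were called higher and 27% lower, and of the 34 proteasome models in that range 26 were called higher and 0 lower.

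The differences were small. The called genes were 9.8% to 36.3% higher in RbLoTem cells, and no member reached a log2 fold change of 1, a size that 929 called models of the whole table reached in either direction. Summed over the 41 models, proteasome exon reads were 17428 and 17195 CPM in RbHiTn libraries and 20429 and 20154 CPM in RbLoTem libraries. Proteasome genes thus took 1.73% of exon reads in RbHiTn and 2.03% in RbLoTem cells, a ratio of 1.17. Mean RPKM of the 40 models with reads ran from 1.149 to 328 in RbHiTn cells (median 108.6) and from 1.085 to 392 in RbLoTem cells (median 124.1).

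**Figure D1:**
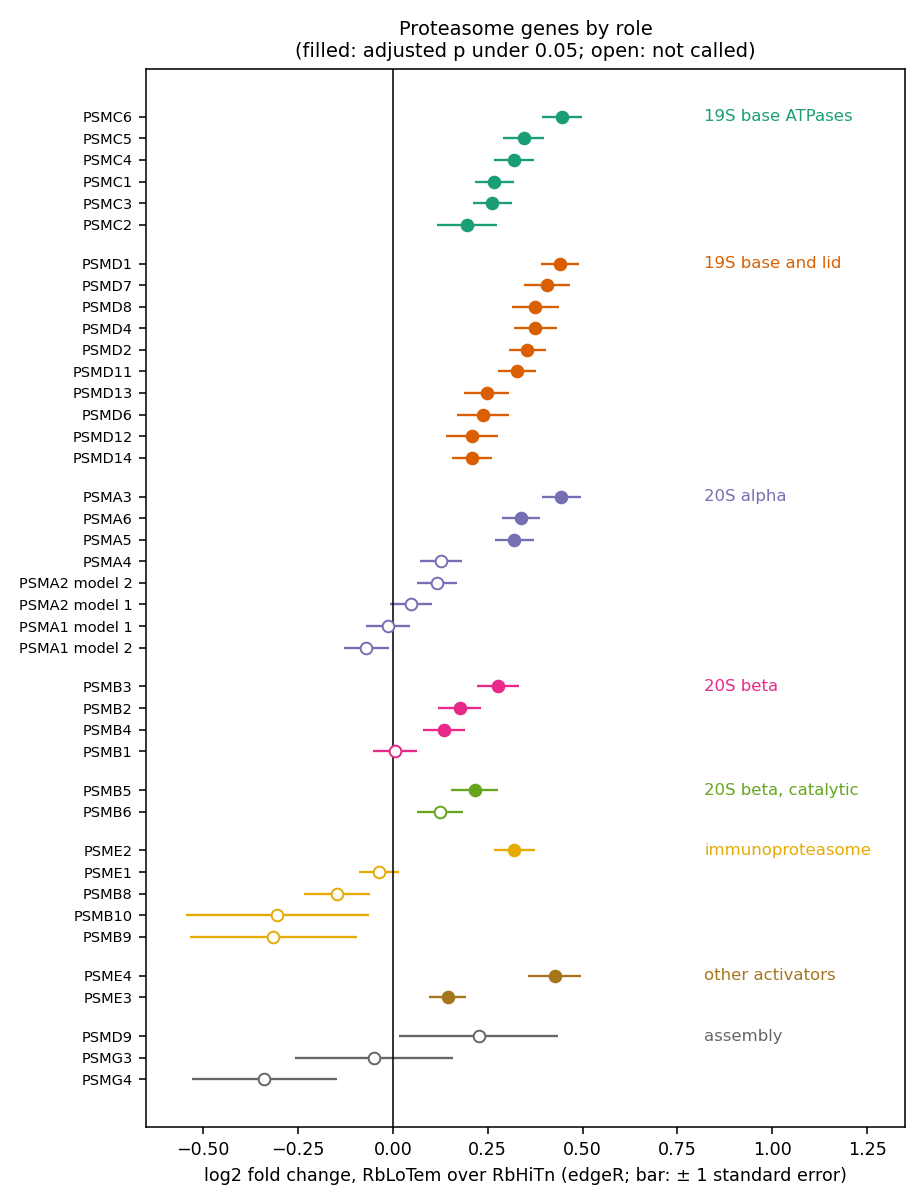
Log2 fold change (RbLoTem over RbHiTn, horizontal axis) of each of the 40 proteasome models tested, grouped by role, with bars of 1 standard error on either side. Filled points were called (adjusted p under 0.05). All 16 genes of the 19S cap that carry a PSM name and had a model are filled. They lie to the right of 0, between 0.20 and 0.45.

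**Figure D2:**
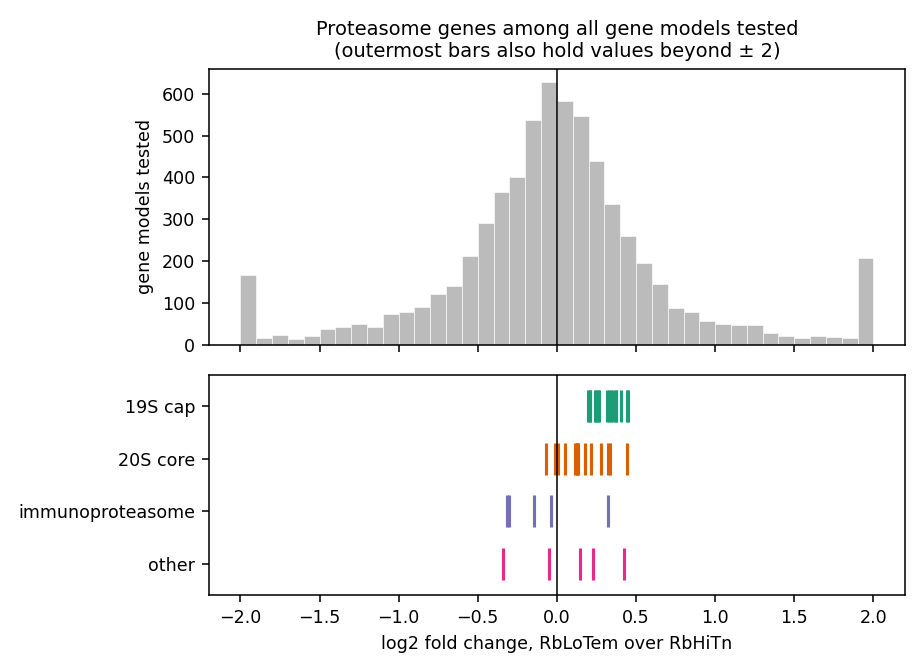
Upper panel, number of all 6539 tested models (vertical axis) in bins of log2 fold change, whose outermost bars also take the 352 models beyond 2 in size. Lower panel, each tick is 1 proteasome model, by group, and none lies beyond 0.45 in size.

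Of the 19S cap subunits, PSMD3 and ADRM1 had no model. Those with a PSM name and a model were higher in RbLoTem cells. All 16 of them were called, against 24.3% of all tested models called higher and 35.3% of those with at least 100 CPM. In all 16 both RbLoTem libraries lay above both RbHiTn libraries, against 35.3% of all tested models. The median log2 fold change of the 16 was 0.32 (range 0.20 to 0.45). The number called was 14 by DESeq2 and 13 to 15 when 1 library was left out. SEM1, a small lid subunit with no PSM name and listed as SHFM1, was tested and not called (log2 fold change -0.13, SE 0.09, adjusted p = 0.235).

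The 6 ATPases of the base form the ring that unfolds substrates and opens the gate of the core. Their summed reads were 3072 and 3093 CPM in RbHiTn and 3746 and 3792 CPM in RbLoTem libraries, a ratio of 1.22. PSMC6 had 55.8 and 58.4 RPKM in RbHiTn and 77.6 and 76.9 RPKM in RbLoTem libraries. Its libraries did not overlap, and its log2 fold change of 0.45 (SE 0.05, adjusted p = 2.3e-08), or 1.36-fold, was the largest of all 40 models. PSMC5 had 89.8 and 91.0 RPKM against 112.0 and 116.1 RPKM (log2 fold change 0.34, SE 0.05, adjusted p = 3.1e-06). PSMC4, which had 243.0 and 239.7 RPKM in RbHiTn cells, reached 288.4 and 310.3 RPKM in RbLoTem cells (0.32, SE 0.05, adjusted p = 6.85e-06). In both genes the gap between subsets was wider than the gap within either. PSMC1 went from 191.8 and 188.4 to 232.3 and 223.0 RPKM (0.27, SE 0.05, adjusted p = 5.56e-05). PSMC3, with 279.0 and 290.9 against 337.1 and 341.9 RPKM, gave 0.26. PSMC2 gave the smallest value of the ring (0.20, SE 0.08, adjusted p = 0.0399).

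The other cap subunits scaffold the base, bind ubiquitin or form the lid. The 10 measured took 4827 and 4810 CPM in RbHiTn and 5992 and 5954 CPM in RbLoTem libraries, a ratio of 1.24 (median log2 fold change 0.34, range 0.21 to 0.44). PSMD1, a large scaffold of the base that docks ubiquitin receptors, had 124.9 and 127.9 RPKM in RbHiTn and 173.8 and 167.3 RPKM in RbLoTem libraries (0.44, SE 0.05, adjusted p = 9.26e-09). Its gap between subsets was many times the gap within a subset. PSMD7, the lid partner of the deubiquitinase, had 98.9 and 91.7 against 124.9 and 126.9 RPKM (0.41, SE 0.06, adjusted p = 1.38e-06). Only 57.4% of PSMD7 reads matched a single place, and on such reads alone the log2 fold change was 0.46 (SE 0.07). The direction thus did not rest on reads with several places. PSMD8, a lid subunit, had 73.2 and 68.8 against 91.8 and 91.9 RPKM (0.38, SE 0.06, adjusted p = 6.74e-06). PSMD4, a ubiquitin receptor, had 109.6 and 109.4 against 137.6 and 144.7 RPKM (0.38, SE 0.06, adjusted p = 1.57e-06). Each of these genes had RbLoTem libraries clear of the RbHiTn libraries. PSMD2, the other large scaffold of the base, gave 0.35, and the lid subunits PSMD11, PSMD13, PSMD6 and PSMD12 gave 0.33, 0.25, 0.24 and 0.21. PSMD14, the deubiquitinase that removes ubiquitin chains before degradation, gave 0.21 (SE 0.05, adjusted p = 0.00125), with 72.0 and 73.2 against 85.6 and 81.3 RPKM.

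The 20S core was called in part, and its difference from the cap was not tested. Of 14 models of constitutive core subunits, 7 were called higher and 0 lower. Among all tested models 24.3% were called higher and 23.6% lower, and among those with at least 100 CPM 35.3% and 27%. The core models had a median log2 fold change of 0.13 (range -0.07 to 0.44). The number called was 6 by DESeq2 and 9 with RLE factors. Without the RbHiTn library with suffix o, 4 were called.

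The alpha rings gate the entry to the core. PSMA3 had 228.9 and 221.5 RPKM in RbHiTn and 315.9 and 294.2 RPKM in RbLoTem libraries, 1.36-fold higher (0.44, SE 0.05, adjusted p = 1.38e-08). PSMA6 had 311.0 and 312.5 against 398.4 and 385.7 RPKM (0.34, SE 0.05, adjusted p = 1.07e-06). Of the PSMA6 reads 14.2% matched a single place, and these alone gave a log2 fold change of 0.49 (SE 0.08, adjusted p = 3.79e-09). PSMA5 had 110.5 and 109.0 against 137.6 and 135.0 RPKM (0.32, SE 0.05, adjusted p = 3.53e-06). In these 3 genes the libraries of the subsets did not overlap. The other alpha subunits with a model did not pass the test. PSMA4 gave 0.13 (SE 0.06, adjusted p = 0.0601). The paired models of PSMA1 and PSMA2 had no reads that matched a single place. With the reads of both models summed, PSMA1 had 4099 and 2671 reads in RbHiTn and 2926 and 3855 reads in RbLoTem libraries (-0.04, SE 0.05, adjusted p = 0.564), and PSMA2 gave 0.09 (SE 0.05, adjusted p = 0.136).

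Among the non-catalytic beta subunits, PSMB3 had 318.3 and 316.5 RPKM in RbHiTn and 374.3 and 390.0 RPKM in RbLoTem libraries (0.28, SE 0.06, adjusted p = 1.08e-04). PSMB2 had 171.2 and 158.3 against 181.6 and 189.3 RPKM (0.18, SE 0.06, adjusted p = 0.0103). PSMB4 had 254.7 and 237.5 against 263.8 and 274.3 RPKM (0.14, SE 0.05, adjusted p = 0.0421). For PSMB2 and PSMB4 the RbLoTem libraries lay only just above the higher RbHiTn library. PSMB2 was no longer called without either library with suffix o (adjusted p = 0.156 and 0.105), and PSMB4 no longer with DESeq2 (adjusted p = 0.0873) and under several other settings. PSMB1 had 146.4 and 143.5 against 147.5 and 142.3 RPKM, and its libraries overlapped (0.01, SE 0.06, adjusted p = 0.948, 95% interval -0.11 to 0.12).

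The constitutive catalytic subunits were measured for the chymotrypsin-like site (PSMB5) and the caspase-like site (PSMB6). PSMB5 lies at chr14:23485752-23504439 in the human positions of the files. It had 129.5 and 124.3 RPKM in RbHiTn cells (mean 126.9 ± 3.65, SD, n = 2) and 148.2 and 145.5 RPKM in RbLoTem cells (146.9 ± 1.93), a 1.16-fold difference (log2 0.22, SE 0.06, adjusted p = 0.00447). Without the RbHiTn library with suffix o its adjusted p was 0.0578. PSMB6 (chr17:4699456-4701624) had 205.5 and 209.6 against 224.8 and 224.7 RPKM. Its libraries did not overlap, but it did not pass the test (0.12, SE 0.06, adjusted p = 0.0881).

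Of the 5 immunoproteasome genes, PSME2 alone was called higher and 0 were called lower, beside 24.3% and 23.6% of all tested models, so that the count of higher calls is near the background. The counts were 1 and 0 by edgeR, DESeq2 and limma alike, and at an unadjusted p under 0.05 the counts were also 1 and 0. The median log2 fold change was -0.15 (range -0.32 to 0.32). Their summed reads were 1380 and 1283 CPM in RbHiTn and 1431 and 1406 CPM in RbLoTem libraries, a ratio of 1.07.

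PSMB8, also called LMP7, takes the place of PSMB5 (human position chr6:32808494-32812480). It had 48.4 and 44.2 RPKM in RbHiTn cells (46.3 ± 2.92, SD, n = 2) and 40.0 and 43.3 RPKM in RbLoTem cells (41.7 ± 2.35). Both RbLoTem libraries lay below both RbHiTn libraries, by less than the spread within a subset for the nearest pair, and the gene did not pass the test (log2 fold change -0.15, SE 0.09, adjusted p = 0.161). Its 95% interval ran from -0.32 to 0.02.

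PSMB9 (LMP2), the counterpart of PSMB6, and PSMB10, the counterpart of PSMB7, had few reads on their human models. PSMB9 (chr6:32812613-32827362) had 92 and 41 exon reads in RbHiTn and 37 and 73 in RbLoTem libraries, or 4.82 and 3.33 against 2.70 and 3.87 RPKM. PSMB10 (chr16:67968405-67970990) had 74 and 30 reads against 36 and 50 reads, or 6.13 and 3.86 against 4.157 and 4.195 RPKM. The libraries of both genes overlapped between subsets. Neither passed the test (PSMB9, -0.32, SE 0.22, adjusted p = 0.245; PSMB10, -0.31, SE 0.24, adjusted p = 0.313). The ratio of RbLoTem to RbHiTn reads, scaled to library size, was 0.801 for both, with exact 95% intervals of 0.616 to 1.04 for PSMB9 and 0.595 to 1.08 for PSMB10 that cover counting error only. Without the RbHiTn library without o, both log2 values turned above 0 (0.02 and 0.13, neither called).

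Of the PA28 subunits, PSME2 was called higher and PSME1 was not, and the difference between their fold changes was not tested. PSME2 (chr14:24612574-24616467) had 152.7 and 142.1 RPKM in RbHiTn cells (147.4 ± 7.45, SD, n = 2) and 185.5 and 181.2 RPKM in RbLoTem cells (183.4 ± 3.04), and was called 1.25-fold higher (log2 0.32, SE 0.05, adjusted p = 1.03e-05). PSME1 (chr14:24605367-24608176), its neighbour, had 335.3 and 320.6 RPKM in RbHiTn cells (328.0 ± 10.4) and 322.8 and 314.1 RPKM in RbLoTem cells (318.4 ± 6.16). Its libraries overlapped, and its value of -0.04 (SE 0.05, adjusted p = 0.613) had a 95% interval of -0.14 to 0.07. Within each library, the RPKM of PSME1 over that of PSME2 was 2.20 and 2.26 in RbHiTn and 1.74 and 1.73 in RbLoTem libraries. The heteromeric ring itself is built from PSME1 and PSME2 protein, whose amounts were not measured here.

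**Figure D3:**
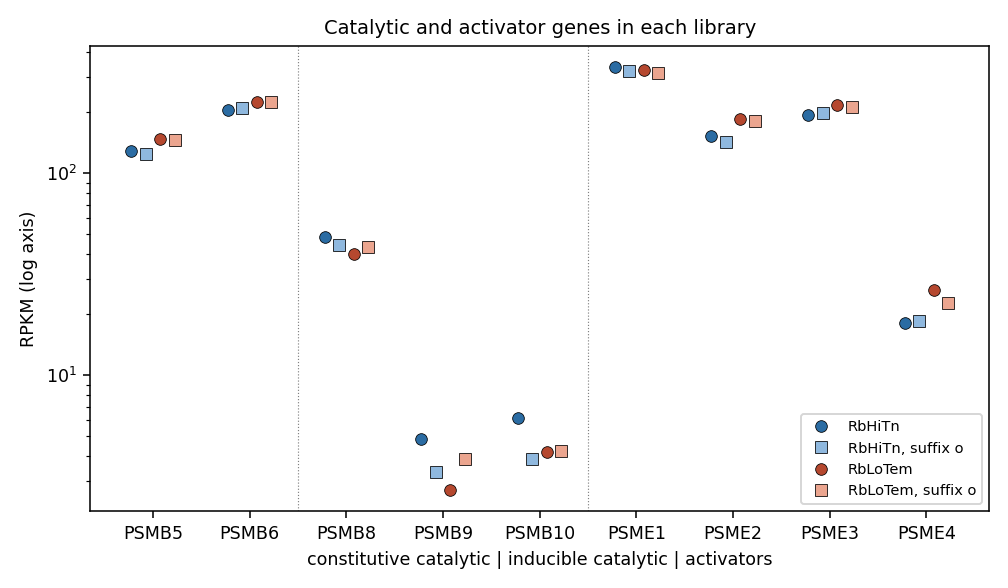
RPKM of the catalytic and activator genes in each of the 4 libraries (vertical axis, logarithmic; circles without and squares with the suffix o; blue RbHiTn, red RbLoTem). PSMB5, PSMB6, PSME2, PSME3 and PSME4 have both red symbols above both blue ones, PSMB8 has them below, and the libraries of PSMB9, PSMB10 and PSME1 overlap.

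Ratios of an inducible to its constitutive subunit within a library do not depend on library size. PSMB8 over PSMB5 was 0.374 and 0.356 in RbHiTn cells (0.365 ± 0.0125, SD, n = 2) and 0.270 and 0.298 in RbLoTem cells (0.284 ± 0.0198). All RbLoTem values lay below the RbHiTn values, and the difference of the mean log2 ratios was -0.36. PSMB9 over PSMB6 was 0.0234 and 0.0159 against 0.0120 and 0.0172, so that the subsets overlapped. The ratio of PSMB10 to PSMB7 could not be formed, as PSMB7 had no model. These ratios are given as a description and were not tested. Their absolute size depends on how well mouse reads match each human model.

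**Figure D4:**
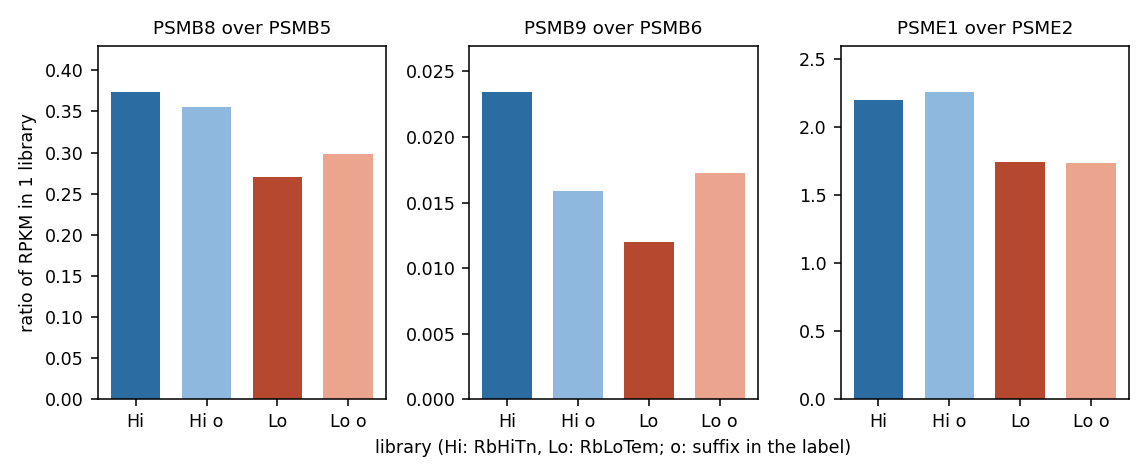
Ratio of RPKM between paired genes in each library (bars from 0; Hi, RbHiTn; Lo, RbLoTem; o, suffix in the label). PSMB8 over PSMB5 and PSME1 over PSME2 are lower in both RbLoTem libraries, at 0.270 to 0.298 and 1.73 to 1.74, and PSMB9 over PSMB6 overlaps.

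The other activators were both called higher. PSME4 (PA200), a large nuclear activator, had 18.2 and 18.5 RPKM in RbHiTn and 26.5 and 22.7 RPKM in RbLoTem libraries, a 1.34-fold difference (log2 0.43, SE 0.07, adjusted p = 5.11e-06). PSME3, which forms a nuclear homomeric ring related to PA28, had 193.8 and 198.8 against 218.3 and 213.2 RPKM (0.14, SE 0.05, adjusted p = 0.0148). The libraries of both genes were apart between subsets, by a wider margin for PSME4. The PSME3 call was lost without either library that lacks the suffix o (adjusted p = 0.0979 and 0.0763). Assembly chaperones build the core and the base but are not part of the finished particle. None of the 3 measured was called in either direction by edgeR or DESeq2, nor passed at an unadjusted p under 0.05, and their counts were low. PSMG4, a chaperone of the core, had 102 and 54 reads against 49 and 78 reads (-0.34, SE 0.19, adjusted p = 0.146). PSMG3, its partner, had 68 and 44 reads against 44 and 68 (-0.05), and PSMD9, a chaperone of the base, had 77 and 35 against 62 and 72 (0.23, SE 0.21, adjusted p = 0.397). Their SEs of 0.19 to 0.21 were about as large as the smaller fold changes of the cap.

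Proteins that work with the proteasome but carry other names were taken from 4 lists with 67 genes, of which 51 had a model, with 40 models tested, 13 called higher and 10 lower. Of all models tested, 24.3% and 23.6% were called higher and lower. Of 4 tested of 13 cap-bound and assembly factors, 3 were called higher. UCHL5, a deubiquitinase of the cap, had 1006 and 656 reads in RbHiTn and 1052 and 1353 reads in RbLoTem libraries, whose sequencing depth differs (0.49, SE 0.07, adjusted p = 2.28e-07). UBE3C, a ubiquitin ligase that binds the proteasome, gave 0.47 and PITHD1 gave 0.25 (adjusted p = 2.47e-04 and 0.0257). The other was SEM1, described with the cap, which did not pass. Of 12 tested genes for delivery of ubiquitin-tagged proteins, 3 were called higher and 2 lower. Those called higher were NPLOC4 (0.65), a cofactor that brings substrates to the p97 unfoldase, SQSTM1 (0.56), an autophagy receptor, and the shuttle UBQLN4 (0.55). RPS27A, which encodes ubiquitin fused to a ribosomal protein, was among those called lower (-0.26). Of 10 tested models for MHC class I antigen processing, 4 were called higher and 3 lower. Of the called genes the chaperones CANX (0.53) and CALR (0.48) and the peptidases LAP3 (0.35) and BLMH (-0.39) had the largest values. TAP1, a subunit of the peptide transporter, had 12 and 6 reads against 11 and 15 reads and was not called (0.48, SE 0.44, adjusted p = 0.392), and B2M had 0 reads.

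Proteasome gene transcription is driven in mammals by NFE2L1, a factor held in the endoplasmic reticulum and released when proteasome activity is short. It binds antioxidant response elements with small MAF partners, and the enzyme NGLY1 removes its glycans. Immunoproteasome genes are induced through IRF1. Of 14 tested genes of such factors, 3 were called higher and 5 lower, beside 24.3% and 23.6% of all tested models, and these counts show no direction of the list. NFE2L1 had 750 and 495 reads in RbHiTn and 831 and 1211 reads in RbLoTem libraries, or a mean of 20.02 ± 0.357 and 31.4 ± 1.27 RPKM (SD, n = 2), and was called higher (log2 0.66, SE 0.07, adjusted p = 2.01e-09). MAFG, a small MAF protein, was called higher on few reads (28 and 21 against 44 and 74; 1.21, SE 0.26, adjusted p = 2.05e-04). NFE2L2, the relative of NFE2L1 that answers oxidative stress, was called lower (-0.70, SE 0.15, adjusted p = 2.16e-04), as was NGLY1 (-0.64, SE 0.10, adjusted p = 4.07e-06). IRF1 was called lower by a smaller amount (-0.26, SE 0.09, adjusted p = 0.0143). No protein or activity of these factors was measured.

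Promoter windows were searched for the elements these factors bind. RefSeq windows of mouse build GRCm38.p6, from 250 bases before to 50 bases after a start site, were matched by symbol for 35 of the 39 genes, with 38 windows in all. The antioxidant response element core TGANNNNGC, where N is any base and either strand counts, was in 57.9% of these 38 windows and in 41.3% of all 32851 windows of the table. A longer form of this element, which contains the core, was in 5.26% against 3.04%, in the windows of Psmd12 and Psme4. The interferon-stimulated response element core, a pair of GAAA runs with any 2 bases between them, was in 13.2% against 3.44%, namely in those of Psmb3, Psmd4, Psmd9, Psme1 and Psmg4. The CCAAT box, bound by NFY, was in 31.6% against 37.4%. A match describes letters in a window and is no evidence of binding. The windows of the PA28 pair, Psme1 and Psme2, and of Psme4 are shown because 1 PA28 gene was called and its partner was not, and because Psme4 gave the largest value among the activators. Capitals mark the match to the interferon-stimulated core in Psme1 and to the longer antioxidant element in Psme4, both read on the opposite strand. Psme2, shown for the start site farther upstream, has neither element.
Psme1 (chr14:55578244-55578543, plus strand): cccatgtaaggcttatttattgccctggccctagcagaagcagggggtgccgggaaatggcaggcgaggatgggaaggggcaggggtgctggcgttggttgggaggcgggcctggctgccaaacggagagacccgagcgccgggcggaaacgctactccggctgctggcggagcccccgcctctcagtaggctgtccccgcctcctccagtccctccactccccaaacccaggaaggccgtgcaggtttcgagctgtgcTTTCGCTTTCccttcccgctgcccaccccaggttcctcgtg
Psme2 (chr14:55591052-55591351, minus strand): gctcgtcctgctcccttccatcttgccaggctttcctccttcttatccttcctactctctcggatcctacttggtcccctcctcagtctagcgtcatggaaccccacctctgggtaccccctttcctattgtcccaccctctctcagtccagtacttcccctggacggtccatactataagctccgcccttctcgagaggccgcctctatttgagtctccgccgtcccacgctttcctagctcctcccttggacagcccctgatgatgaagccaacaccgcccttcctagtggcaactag
Psme4 (chr11:30771525-30771824, plus strand): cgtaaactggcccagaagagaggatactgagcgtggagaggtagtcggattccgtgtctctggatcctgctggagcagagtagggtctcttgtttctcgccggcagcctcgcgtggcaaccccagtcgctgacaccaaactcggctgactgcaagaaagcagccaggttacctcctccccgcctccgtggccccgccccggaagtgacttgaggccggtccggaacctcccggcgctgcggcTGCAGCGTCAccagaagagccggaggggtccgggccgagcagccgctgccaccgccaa
With the start site counted as base 1, the match in Psme1 begins at base 10, and that in Psme4 begins 8 bases before the start site. Of the genes with the interferon-stimulated core, Psmb3 and Psmd4 were called higher, and Psme1, Psmd9 and Psmg4 were not called. Whether a motif goes with a call was not tested. The called PA28 subunit, Psme2, has the shorter antioxidant core, as does Psmb8, which was not called, and, with these, 20 of the 35 genes.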

How the data were processed

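Messenger RNA of 2 RbHiTn and 2 RbLoTem libraries was analysed. The submitters' processing notes name Trimmomatic, TopHat, HTSeq, DESeq2 and mm10. The authors deposited counts of total and unique reads in exons and in genes for each of 38588 models, which have human names. The study's methods describe alignment by TopHat to mm10 with Gencode vM4 and counting by htseq-count, which human models do not match. The aligner and annotation behind the tables themselves, and the use of strand, are therefore uncertain, and reads of overlapping genes, such as neighbours or antisense partners, cannot be separated. The RPKM values deposited by the authors equal the exon reads divided by exon length in kb and by reads in genes, in units of 1000000.

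Total exon reads of the whole table entered the quasi-likelihood test of edgeR 4.0.16 (R 4.3.3), after filterByExpr and with TMM factors of 0.991 to 1.013 and no block, and only proteasome and listed genes are reported. The SE is the size of the log2 fold change divided by the square root of F. Counts of members are given as descriptions, with no test over a list. Alternatives were RLE factors or library totals alone as scaling, DESeq2 1.42.0, limma 3.58.1 on log2 RPKM after adding 0.1 or 1, no filter, unique or gene reads, a replicate block taken from the suffix, and leaving out each library. The script was tested on simulated data with log2 changes larger than that of any called proteasome gene. That test therefore does not cover the sizes found for these genes. Ratios within a library were not tested.

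The members and lists were chosen with earlier results of these data known. The rule for named genes gave full values to the immunoproteasome genes and their constitutive counterparts and to up to 4 called genes of each other role by size of log2 fold change, and named up to 4 called genes of each list of partners. Some genes that the lists hold are not reported here by name. All other members were named to account for every model. RPS27A, IRF1, SEM1, TAP1 and B2M, and the fuller values of PSMC2, PSMC3, PSMD14, PSMA1, PSMA2, PSMA4, PSMB1, PSMG3, PSMG4 and PSMD9, went beyond the rule and were chosen after their values were seen. Promoter windows came from RefSeq (mouse GRCm38.p6).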

Additional observations from a re-analysis of the deposited data

Results flagged for a closer look

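Reads in data that the comparisons do not use were found on the pseudogene model PSMC1P10, which had 87 and 48 reads within the gene in RbHiTn libraries and 62 and 80 in RbLoTem libraries, 277 over the 4 libraries, and 0 in its exons. Of the 14 pseudogene models with a PSM name, 6 had any read within the gene and 0 had an exon read. The source of these reads was not tested.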

How the results depend on the processing

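The number of proteasome models called higher was 22 to 28 over the alternatives, against 26, and 0 were called lower under any of them. It was 28 with RLE factors, with no filter and with reads in genes, 23 with DESeq2, 24 with library totals alone and with limma at either constant, and 22 to 24 with 1 library left out. PSME2 stayed the 1 immunoproteasome gene called under all alternatives run. The 20S core count was 7, and 4 to 7 with 1 library left out. Without the RbHiTn library without suffix o, the log2 values of PSMB9, PSMB10 and PSME1, none of them called, turned above 0. With 1 library left out they ranged from -0.62 to 0.0217, from -0.55 to 0.13 and from -0.0693 to 0.0021. Among the genes that the naming rule took, PSMB2, PSMB4, PSMB5 and PSME3 lost their call under at least 1 alternative each. The cause was not tested. With a replicate block on the label suffix, 25 models were called higher and 0 lower, and among these genes the block ended the call of PSMB4 alone (adjusted p = 0.0637). Deviations of libraries with the same suffix correlated at -0.012 over 6539 models, so the suffix gave no sign of pairing. Summing models of a symbol, an alternative chosen after seeing the data, gave 26 higher and 0 lower. Of the listed partner genes, 13 were called higher and 10 lower. These counts were 11 and 7 with DESeq2, and 13 and 7 with limma at either constant and with reads in genes. With unique reads and with library totals alone they were 13 and 11. Genes with under 300 reads in all, such as PSMB9, PSMB10 and the assembly factors, carry wide intervals at this depth.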
